A study of Mus musculus with 6 samples.

Results

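Chemokine ligands are small secreted proteins that set the direction in which leukocytes move, and their transcripts were examined here in the liver of Balb/cBy and Balb/c mice fed a high-fat diet. The ligand genes were taken from the array annotation as every gene whose symbol begins with Ccl or Cxcl and a number, together with Cx3cl1 and Xcl1. This gave 34 genes with a probe set of their own symbol, on 35 probe sets, of 22180 genes tested on the array. Ccl27a alone had a second probe set, and for it the brighter one stands in the counts. No probe set was shared among family symbols alone. A further 33 probe sets carried Ccl19, Ccl21 or Ccl27 symbols together with other symbols, and they are described separately.

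The study set 3 Balb/cBy mice against 3 Balb/c mice, 1 liver array per mouse. The series calls Balb/cBy KD and Balb/c WT, and its labels name no gene for that term. The BALB/cBy substrain is known for a spontaneous deletion in Acads, a gene of fatty acid oxidation. Both groups were male, aged 20 weeks, and had been switched to a high-fat diet (58% fat energy) when 8 weeks old, which they ate for 12 weeks. No group on ordinary chow enters the comparison. Replicates are biological according to the labels.

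Chemokines are classed by the spacing of their first cysteines into CC, CXC, XC and CX3C types, and they signal through G protein-coupled receptors on leukocytes. CXC ligands with a Glu-Leu-Arg motif before the cysteines attract neutrophils, while Cxcl9, Cxcl10 and Cxcl11 are induced by interferon and attract T and NK cells through Cxcr3. Inflammatory CC ligands recruit monocytes, macrophages, T cells and eosinophils, and homeostatic ligands place cells within tissues and lymphoid organs. In the liver, Kupffer cells, sinusoidal endothelium, stellate cells, biliary cells and hepatocytes can all be sources. In a whole piece of liver, fewer cells of a type and less RNA per cell cannot be told apart.

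RefSeq promoters of assembly GRCm38.p6, 250 bases before to 50 after the start of transcription, were at hand for 23 of the 34 ligands. Those of 5 ligands are shown 5′ to 3′ because the results below turn on these genes: Cxcl9 and Cxcl10 as interferon-induced neighbours with unlike values on these arrays, Ccl9 and Ccl6 as neighbours with differences of the same sign, and Cxcl1 as a ligand with a wide spread between arrays. Cxcl9 (chr5:92328030-92328329), Cxcl10 (chr5:92348840-92349139), Ccl9 (chr11:83578587-83578886) and Ccl6 (chr11:83593038-83593337) are on the minus strand, and Cxcl1 (chr5:90890995-90891294) is on the plus strand. Capitals mark matches, on either strand, to the motifs named below the sequences.
Cxcl9: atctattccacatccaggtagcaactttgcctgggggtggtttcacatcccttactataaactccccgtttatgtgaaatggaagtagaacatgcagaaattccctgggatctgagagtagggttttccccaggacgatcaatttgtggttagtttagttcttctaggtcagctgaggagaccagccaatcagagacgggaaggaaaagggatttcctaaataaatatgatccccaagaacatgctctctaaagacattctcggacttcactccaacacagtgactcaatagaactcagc
Cxcl10: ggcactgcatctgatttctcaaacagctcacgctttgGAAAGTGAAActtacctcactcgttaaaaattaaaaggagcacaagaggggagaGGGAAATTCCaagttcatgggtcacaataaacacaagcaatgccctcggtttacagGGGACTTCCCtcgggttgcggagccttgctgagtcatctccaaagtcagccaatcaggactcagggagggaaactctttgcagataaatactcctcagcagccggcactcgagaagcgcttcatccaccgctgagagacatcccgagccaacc
Ccl9: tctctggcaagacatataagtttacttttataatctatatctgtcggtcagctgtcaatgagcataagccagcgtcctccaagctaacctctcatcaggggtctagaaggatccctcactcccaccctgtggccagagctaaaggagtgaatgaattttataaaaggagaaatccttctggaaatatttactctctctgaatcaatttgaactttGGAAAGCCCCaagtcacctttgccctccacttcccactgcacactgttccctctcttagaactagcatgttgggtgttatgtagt
Ccl6: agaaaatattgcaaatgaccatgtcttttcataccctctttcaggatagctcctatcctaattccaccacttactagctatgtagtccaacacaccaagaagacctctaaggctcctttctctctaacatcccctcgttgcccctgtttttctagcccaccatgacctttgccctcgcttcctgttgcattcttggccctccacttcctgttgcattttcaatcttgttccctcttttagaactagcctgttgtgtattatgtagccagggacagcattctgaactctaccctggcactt
Cxcl1: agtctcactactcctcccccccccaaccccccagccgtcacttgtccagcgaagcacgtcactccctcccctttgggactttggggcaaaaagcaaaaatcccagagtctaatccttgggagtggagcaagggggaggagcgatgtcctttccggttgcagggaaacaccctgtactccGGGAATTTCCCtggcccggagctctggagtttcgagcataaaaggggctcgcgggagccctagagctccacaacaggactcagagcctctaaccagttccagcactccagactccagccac
The motifs described here are the core of the interferon-stimulated response element (ISRE), the NF-κB consensus, and GAGGAA, the core bound by the macrophage factor PU.1. The Cxcl10 promoter held the ISRE core from base -213 to -204 and the NF-κB consensus from -159 to -150 and from -103 to -94. The Ccl9 promoter held the NF-κB consensus from -35 to -26, and in the Cxcl1 promoter matches on opposite strands overlapped, from -71 to -62 and from -70 to -61. None of these letters was found in the Cxcl9 and Ccl6 windows. The search took set patterns of letters, so an interferon element of another form would not be marked. The absence of capitals therefore does not show that Cxcl9 lacks such an element. The motif search left out the promoters of a single chromosome, on which none of the ligands lies. Of the 32851 promoters searched, 3.44% held the ISRE core, 4.51% the NF-κB consensus and 28.3% GAGGAA. Of the 26 promoters of ligands, some of which have several starts, 2, 7 and 9 held them in the same order. The Ccl9 and Ccl6 promoters shared a run of 13 bases, gccctccacttcc, the longest among the pairs of these 5. These matches describe letters and were not tested for binding.

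The arrays were alike in overall signal. Across probe sets, arrays of unlike substrain had Pearson correlations of 0.977 to 0.991, and arrays of like substrain 0.977 to 0.990, and the median over tested probe sets lay between 7.98 and 8.03 on the log2 scale. The hepatocyte markers fit the labelled tissue: 9 of 10 were measured and all 9 lay above the background level given below. Their means ran from 8.09 for Ass1, just above that level, to 14.18 for Alb. Acads read 10.60, 10.79 and 10.93 on the Balb/cBy arrays and 11.53, 11.46 and 11.28 on the Balb/c arrays, without overlap (difference -0.65 ± 0.12, SE, limma's adjusted p = 0.319). The position of its probes within the gene was not used. The arrays given the least weight by limma's array weights were Balb/cBy replicate 1 (0.471) and Balb/c replicate 3 (0.635).

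The values are log2 signals normalized by RMA, which corrects background, equalizes the arrays and summarizes the probes of a set. No detection measure was used. As a stand-in, signals were set against 1105 olfactory receptor genes, taken as mostly unused by liver. Their median was 5.92, their 95th percentile 8.02 and their 99th percentile 8.64. By the 95th percentile, 19 of the 34 ligands, or 55.9%, lay above this background, against 50.7% of all tested genes. Above the 99th percentile there were 11 ligands, namely Cxcl12, Ccl9, Cxcl9, Cxcl16, Cxcl2, Ccl5, Ccl6, Cxcl13, Cxcl14, Ccl7 and Cxcl1. A probe set's signal depends on its probes, so the order of ligands by signal is not an order of abundance. The 15 ligands at or below 8.02 had means from 5.39 to 7.93, and among them were Ccl2 and Ccl3 of the inflammatory CC class and Cxcl10. Their values may not be told from background, and RMA pulls dim values together, so their differences can be understated.

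**Figure D1:**
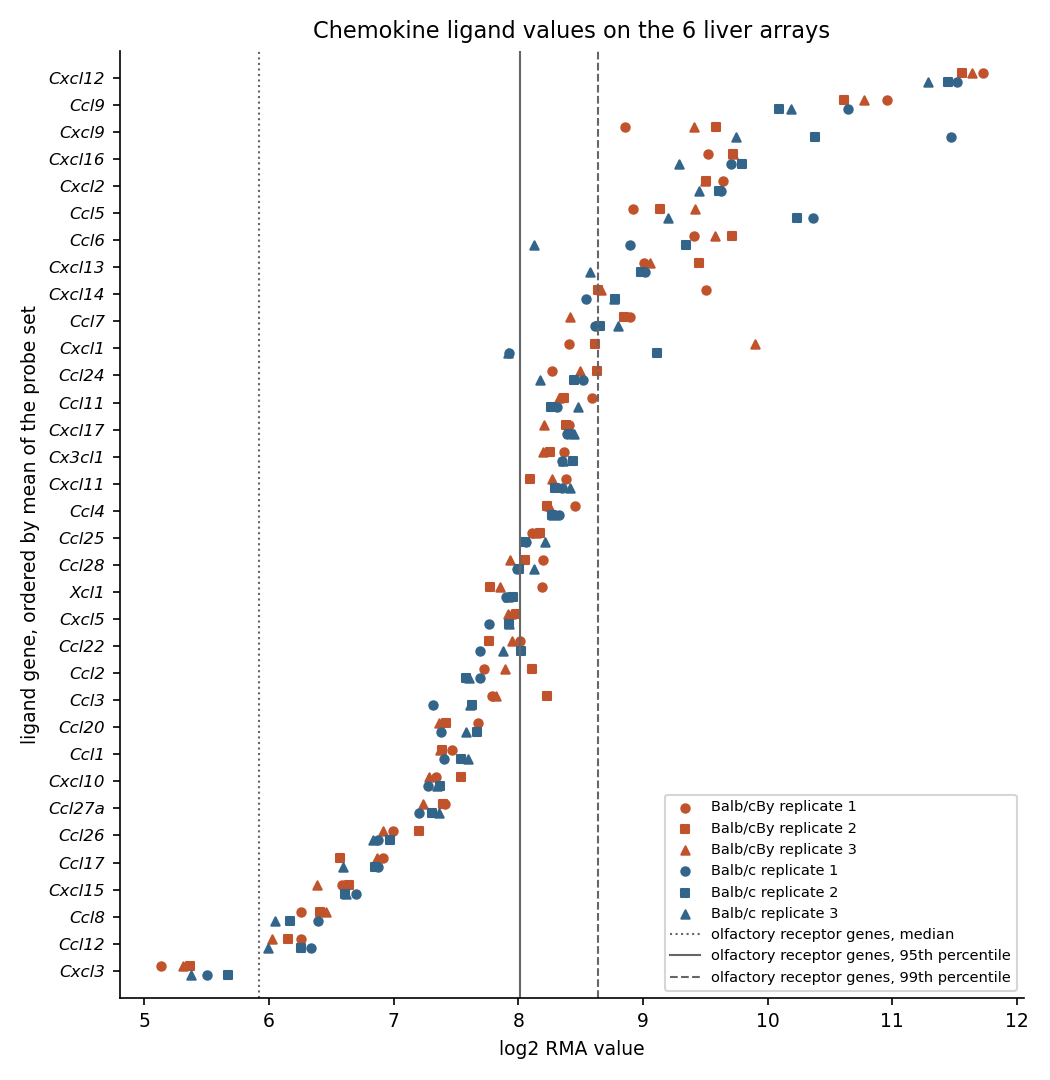
Each row is 1 of the 34 ligand genes, ordered by the mean of its probe set, and the x axis is the log2 RMA value. Orange symbols are the 3 Balb/cBy arrays and blue symbols the 3 Balb/c arrays, with circle, square and triangle for replicates 1, 2 and 3; vertical lines give the median, 95th and 99th percentile of the olfactory receptor genes. Cxcl9, Ccl5, Ccl6 and Cxcl1 spread most widely between arrays, and 19 ligands have means to the right of the solid line at 8.02.

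Between the substrains, no ligand passed limma's test over all probe sets. The 2 ligands with the most negative differences were Cxcl9, at -1.25 ± 0.39 (SE) on the log2 scale, and Ccl5, at -0.78 ± 0.29. The 4 with positive differences and the smallest p were Ccl6 (0.77 ± 0.27), Ccl9 (0.47 ± 0.16), Ccl3 (0.43 ± 0.15) and Ccl2 (0.28 ± 0.12), all inflammatory CC ligands. Differences are Balb/cBy minus Balb/c, so a positive one means a higher signal in Balb/cBy, and SE is limma's moderated standard error with n = 3 arrays a group. The adjusted p (Benjamini-Hochberg over 23521 probe sets) was 0.999 for every ligand. Of all genes on the array, 0.0% passed the adjusted threshold of 0.05.

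At an unadjusted p under 0.05 by limma there were 6 ligands, 4 with positive and 2 with negative differences, or 17.6% of the 34, against 3.74% of all tested genes (2.59% positive and 1.15% negative). Of the 19 ligands above the olfactory receptor level 4 had such a p, against 4.87% of all genes above it, and 3 had groups that did not overlap, against 8.58%. The ligands were chosen for study with earlier results of these arrays known, which limits what this share can show. Without limma's pooling of the spread over genes the count was 0 of 34, against 3.26% of all genes. It was 3 without Balb/cBy replicate 1 (8.18% of all genes), 2 without Balb/cBy replicate 2 (1.93%) and 3 without Balb/c replicate 1 (3.9%). The groups did not overlap in 6 ligands, or 17.6%, against 7.83% of all genes; in 4 of them (4.32% of all genes) every Balb/cBy array was above every Balb/c array, and in 2 (3.51%) below. Over the 34 ligands 23 differences were positive and 11 negative, with a median of 0.04, against a median of -0.0028 over all genes. The median over ligands turned to -0.027 without Balb/cBy replicate 1, and was -0.0049 without that array and Balb/c replicate 3.

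**Figure D2:**
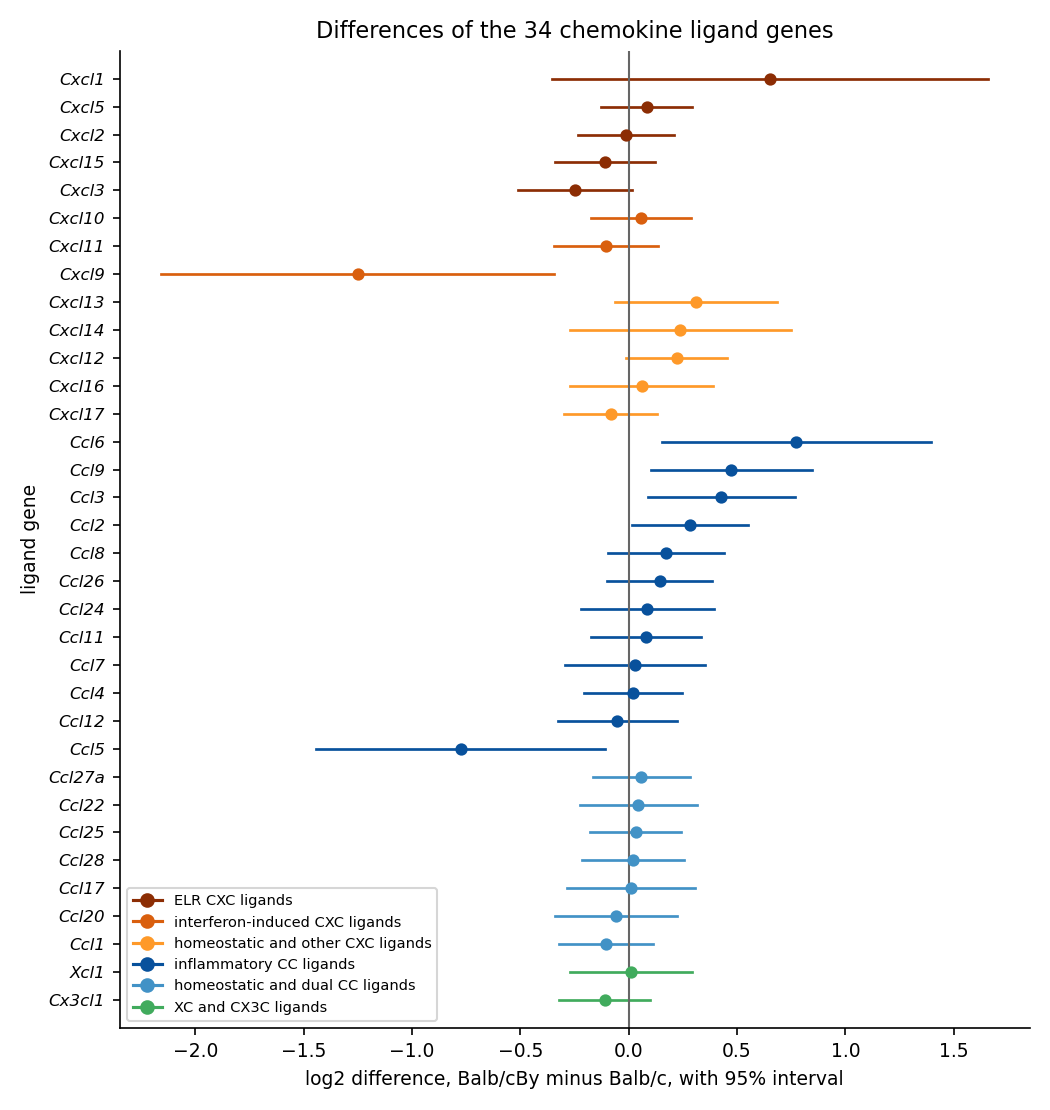
Points are the log2 differences, Balb/cBy minus Balb/c, of the 34 ligands grouped by class, and lines are 95% intervals from limma (n = 3 arrays a group). The intervals of Cxcl9 and Ccl5 lie below 0 and those of Ccl6, Ccl9, Ccl3 and Ccl2 above it, while those of the other 28 ligands include 0.

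Among the interferon-induced CXC ligands, which bind Cxcr3, Cxcl9 stood apart. Cxcl9 (probe set 17449710), a ligand that macrophages and endothelium make in response to interferon-gamma, read 8.85, 9.59 and 9.41 on the Balb/cBy arrays and 11.47, 10.38 and 9.75 on the Balb/c arrays. Every Balb/cBy array lay below every Balb/c array, but the Balb/c arrays themselves spanned over a log2 unit. Its mean was 9.28 ± 0.38 in Balb/cBy and 10.53 ± 0.87 in Balb/c (SD, n = 3 each), a signal 0.420 times that of Balb/c, with a 95% interval of the log2 difference from -2.16 to -0.34. Leaving out Balb/c replicate 1, the highest array, brought the difference to -0.78, and leaving out Balb/c replicate 3, the lowest Balb/c array, to -1.64 (limma's adjusted p = 0.487). Over the settings tried Cxcl9 kept its sign, and its smallest adjusted p was 0.310, without Balb/c replicate 3 and Balb/cBy replicate 1.

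Cxcl10, induced by both type I and type II interferon and the chromosome 5 neighbour of Cxcl9, gave no such contrast. It read 7.34, 7.54 and 7.28 in Balb/cBy and 7.27, 7.37 and 7.35 in Balb/c, all under the olfactory receptor level, with a difference of 0.06 ± 0.10 (SE) and a 95% interval from -0.18 to 0.29. Cxcl11, annotated by RefSeq as a transcribed pseudogene in the C57BL/6J reference, read 8.38, 8.09 and 8.27 in Balb/cBy and 8.35, 8.29 and 8.42 in Balb/c, a difference of -0.10 ± 0.10 (SE). The groups overlapped for both genes. Of this class of 3 genes, Cxcl9 alone had an interval that excluded 0; whether the members differ from each other was not tested.

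Among the inflammatory CC ligands, 10 of 12 differences were positive, with a median of 0.11, and 0 passed the adjusted threshold. Over all 22180 genes 10883 differences were positive. At an unadjusted p under 0.05 there were 4 with positive and 1 with a negative difference, against 2.59% and 1.15% of all genes. All of them were already counted for the whole family above. Several of these genes lie close together on chromosome 11, where the ligands follow each other as Ccl5, Ccl9, Ccl6, Ccl3 and Ccl4 in the RefSeq gene table, with pseudogenes and uncharacterised genes between some of them. Ccl5 had a negative difference and the next 3 ligands positive ones.

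Ccl5, a ligand that T and NK cells make, read 8.92, 9.14 and 9.41 on the Balb/cBy arrays and 10.36, 10.24 and 9.20 on the Balb/c arrays. Balb/c replicate 3 fell among the Balb/cBy values, and the other Balb/c arrays lay well above them. The means were 9.16 ± 0.25 in Balb/cBy and 9.93 ± 0.64 in Balb/c (SD, n = 3 each), with a 95% interval of the difference from -1.44 to -0.11. Without Balb/c replicate 1, the highest array, the difference was -0.56, and without Balb/c replicate 3 it was -1.14 (limma's unadjusted p = 0.000105, adjusted p = 0.176), and without both that array and Balb/cBy replicate 1 it was -1.02 (adjusted p = 0.0869). These were the smallest adjusted p-values of Ccl5 in the settings tried.

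Ccl9, a mouse ligand of Ccr1 made by macrophages and other myeloid cells, read 10.96, 10.61 and 10.77 in Balb/cBy and 10.65, 10.09 and 10.18 in Balb/c. The groups overlapped by a little, since Balb/c replicate 1 exceeded Balb/cBy replicate 2. Its difference was 0.47 ± 0.16 (SE, 95% interval 0.10 to 0.85). Without the highest Balb/c array, replicate 1, it was 0.64 (adjusted p = 0.764), and without Balb/c replicate 3 and Balb/cBy replicate 1 together 0.32.

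Ccl6, the next ligand along and likewise a mouse myeloid ligand of Ccr1, read 9.41, 9.71 and 9.58 in Balb/cBy and 8.90, 9.34 and 8.13 in Balb/c. The Balb/cBy arrays lay close together and just above the highest Balb/c array, while the Balb/c arrays were spread. The difference was 0.77 ± 0.27 (SE, 95% interval 0.15 to 1.39), a signal 1.71 times that of Balb/c. It was 0.44 without Balb/c replicate 3 and 1.05 without Balb/c replicate 2, and its smallest adjusted p over the settings was 0.435.

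Ccl3, a ligand of Ccr1 that activated macrophages make, read 7.79, 8.23 and 7.82 in Balb/cBy and 7.31, 7.63 and 7.61 in Balb/c. The groups did not overlap, though 5 of the 6 values were under the olfactory receptor level. The difference was 0.43 ± 0.15 (SE, 95% interval 0.09 to 0.77). Its neighbour Ccl4, likewise a product of activated macrophages, had a difference of 0.02 ± 0.10 (SE, 95% interval -0.20 to 0.24).

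Ccl2, the monocyte attractant that binds Ccr2, read 7.72, 8.11 and 7.89 in Balb/cBy and 7.69, 7.58 and 7.61 in Balb/c. The lowest Balb/cBy array exceeded the highest Balb/c array by a small margin, with group means under the olfactory receptor level. The difference of 0.28 ± 0.12 (SE) was 0.18 without Balb/cBy replicate 2. The other monocyte attractants gave differences of 0.03 ± 0.14 (SE) for Ccl7, 0.17 ± 0.12 for Ccl8 and -0.05 ± 0.12 for Ccl12. The eosinophil attractants, which bind Ccr3, gave 0.08 ± 0.11 (SE) for Ccl11, 0.09 ± 0.13 for Ccl24 and 0.14 ± 0.11 for Ccl26. None of these 6 reached an unadjusted p under 0.05, and their groups overlapped.

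**Figure D3:**
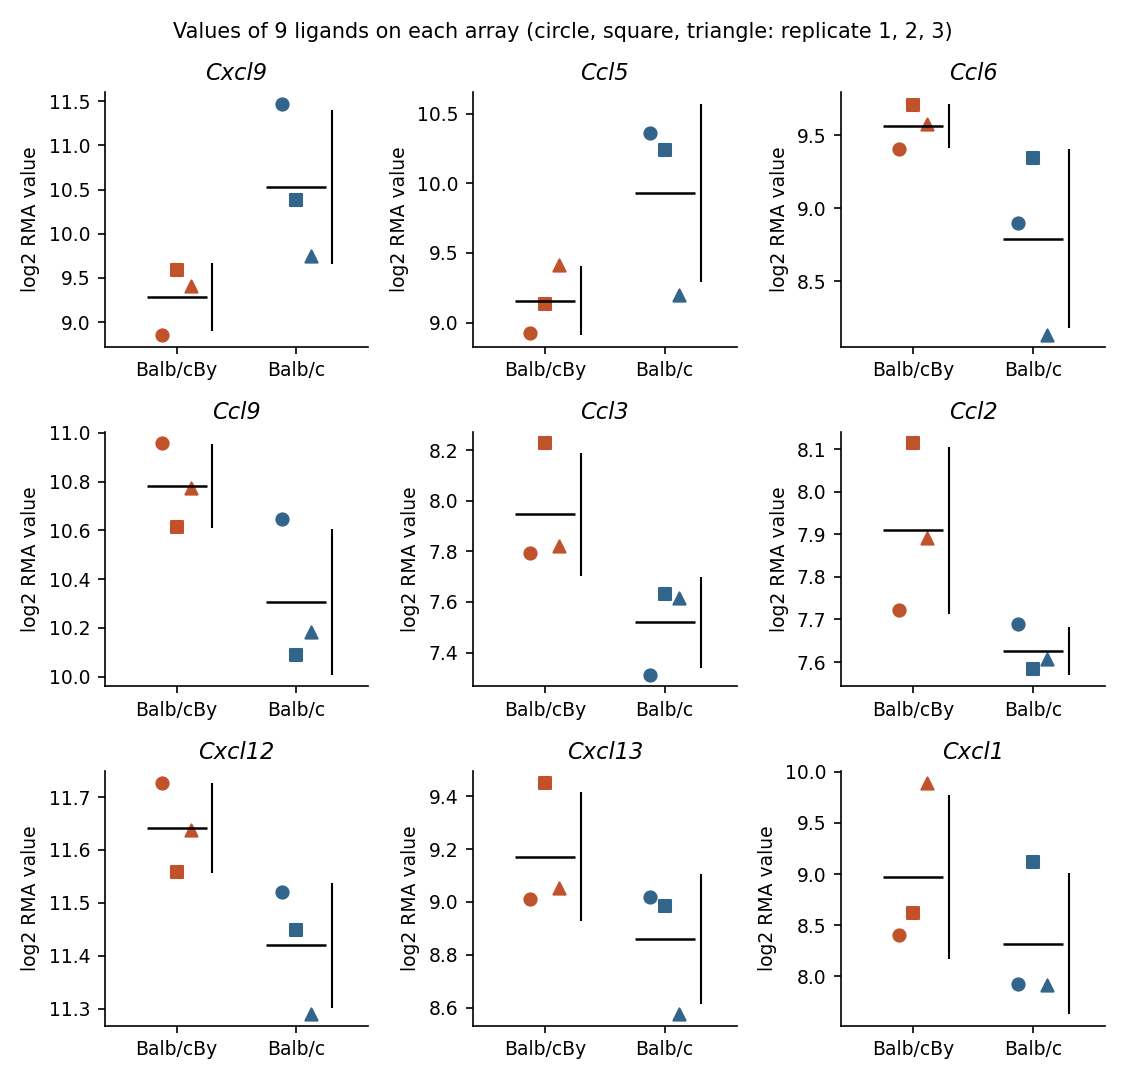
Panels show the log2 RMA values of 9 ligands on each array, with Balb/cBy in orange on the left and Balb/c in blue on the right; horizontal lines are group means, vertical lines 1 SD on either side (n = 3), and the y axes differ between panels. Balb/c replicate 1 is highest for Cxcl9, Balb/c replicate 3 is low for Ccl5, Ccl6 and Cxcl13, and Balb/cBy replicate 3 is high for Cxcl1.

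The CXC ligands of the Glu-Leu-Arg class showed no shared direction, with 2 positive and 3 negative differences among 5. Cxcl1, an early product of NF-κB signalling in hepatocytes and endothelium, read 8.40, 8.62 and 9.90 in Balb/cBy and 7.93, 9.11 and 7.91 in Balb/c. Single arrays made most of the spread: Balb/cBy replicate 3 was highest, and Balb/c replicate 2 was above the other Balb/cBy arrays. Its difference of 0.65 ± 0.44 (SE, 95% interval -0.35 to 1.66) was 0.19 without Balb/cBy replicate 3, 1.05 without Balb/c replicate 2 and 1.23 with array weights (limma's adjusted p = 0.577).

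Cxcl2, which like Cxcl1 acts on Cxcr2, varied little, with 9.64, 9.51 and 9.50 in Balb/cBy and 9.62, 9.61 and 9.45 in Balb/c. Its difference was -0.01 ± 0.10 (SE, 95% interval -0.23 to 0.21). Cxcl3 read 5.13, 5.37 and 5.31 in Balb/cBy and 5.50, 5.68 and 5.37 in Balb/c, under the median olfactory receptor gene. The groups of Cxcl3 almost touched, and a difference at this signal (-0.25 ± 0.11, SE) may not be told from background. Cxcl5 read 7.97, 7.98 and 7.92 in Balb/cBy and 7.76, 7.92 and 7.93 in Balb/c, a difference of 0.08 ± 0.09 (SE). Cxcl15, known as a lung chemokine, read 6.59, 6.64 and 6.38 in Balb/cBy and 6.70, 6.61 and 6.62 in Balb/c, a difference of -0.11 ± 0.10 (SE). Both genes had overlapping groups and lay under the olfactory receptor level.

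The homeostatic and other CXC ligands were all above the olfactory receptor level, and 4 of 5 differences were positive. Cxcl12, the Cxcr4 ligand that retains leukocytes and stem cells and is made by stellate cells and endothelium, read 11.73, 11.56 and 11.64 in Balb/cBy and 11.52, 11.45 and 11.29 in Balb/c. The groups did not overlap and each was tight, and the difference of 0.22 ± 0.10 (SE) had a 95% interval from -0.01 to 0.45. It was 0.16 without Balb/c replicate 3 and 0.11 without that array and Balb/cBy replicate 1.

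Cxcl13, which draws B cells through Cxcr5, read 9.01, 9.45 and 9.05 in Balb/cBy and 9.02, 8.99 and 8.58 in Balb/c. The groups met at their edges, and the difference of 0.31 ± 0.16 (SE) was 0.17 without either Balb/cBy replicate 2 or Balb/c replicate 3. Cxcl14, an epithelial chemokine, read 9.50, 8.64 and 8.67 in Balb/cBy and 8.54, 8.78 and 8.77 in Balb/c. Balb/cBy replicate 1 alone stood high, and without it the difference of 0.24 ± 0.22 (SE) became -0.045. Cxcl16, a membrane-bound ligand of Cxcr6 that holds NKT cells in the sinusoids, read 9.53, 9.72 and 9.72 in Balb/cBy and 9.71, 9.79 and 9.29 in Balb/c. Its difference of 0.06 ± 0.14 (SE, 95% interval -0.27 to 0.39) was within the spread of the arrays and turned to -0.011 when the arrays were quantile-normalized anew. Cxcl17, a mucosal chemokine, gave -0.08 ± 0.09 (SE).

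The remaining ligands varied little. Of the homeostatic and dual CC ligands, 7 had a probe set of their own, 2 of them above the olfactory receptor level, and their differences ran from -0.10 ± 0.09 (SE) for Ccl1, a ligand of Ccr8, to 0.06 ± 0.10 for the brighter probe set of Ccl27a, a skin-homing ligand of Ccr10. Between them were Ccl20, the Ccr6 ligand, at -0.06 ± 0.12 (SE), the Ccr4 ligands Ccl17 and Ccl22 at 0.01 ± 0.13 and 0.04 ± 0.12, the gut ligand Ccl25 at 0.03 ± 0.09 and the mucosal ligand Ccl28 at 0.02 ± 0.10. Xcl1, made by NK and CD8 T cells, differed by 0.01 ± 0.12 (SE), and Cx3cl1, the membrane-bound fractalkine, by -0.11 ± 0.09. All of these groups overlapped. The widest 95% interval among these 9 genes was that of Ccl17, from -0.28 to 0.31, so differences of this size could not be told from 0 with 3 arrays a group.

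Probe sets shared with other symbols covered the lymphoid ligands Ccl19 and Ccl21, which act on Ccr7, and Ccl27. There were 13 with Ccl19, 9 with Ccl21 and 11 with Ccl27 symbols, of which 9, 5 and 9 held distinct values. Their means ran from 7.32 to 9.19 and their differences from -0.18 to 0.18, and the smallest unadjusted p was 0.0963 by limma. The groups did not overlap on 5 of the 33, or on 4 of the 23 with distinct values, against 7.83% of all genes; 4 of the 5 had Ccl27 symbols. Ccl27a has a pair of probe sets listed under its symbol alone. The brighter one, which gave the value above, had values identical to 2 of the shared ones, so its signal may not belong to that gene alone. The other had a mean of 6.59 and a difference of -0.02 ± 0.13 (SE).

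The chemokine receptors showed no shared direction. Of 19 listed chemokine receptors 18 were measured, 5 of them above the olfactory receptor level, with 8 positive and 10 negative differences, a median of -0.04 and 0 passing at the adjusted threshold or at an unadjusted p under 0.05. The smallest p-values were those of Ccr1 at 0.22 ± 0.11 (SE), the neutrophil receptor Cxcr1 at -0.22 ± 0.12 and Cxcr3 at -0.17 ± 0.10. Ccr1 read 6.67, 6.64 and 6.60 in Balb/cBy and 6.28, 6.36 and 6.61 in Balb/c, well under the olfactory receptor level. Cxcr3 read 8.71, 8.61 and 8.58 in Balb/cBy and 8.69, 8.96 and 8.78 in Balb/c. Both had overlapping groups. Another pair of receptors was picked after their values were seen, for their ligands named above: Ccr2 differed by -0.04 ± 0.09 (SE) and Cxcr4 by 0.14 ± 0.17. Of 7 atypical and related receptors 3 differences were positive and 4 negative, none at an unadjusted p under 0.05. The platelet CXC ligands listed under other symbols, Pf4 and Ppbp, differed by 0.22 ± 0.14 (SE) and -0.09 ± 0.24.

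Genes of the signals that induce chemokines were read from the same fit. Of 24 listed genes of interferon-gamma signalling and its response, 22 were measured. Of them 14 differences were positive and 8 negative, with a median of 0.02, and 0 passed. At an unadjusted p under 0.05 there were 2, both positive: the interferon-induced GTPases Igtp (0.51 ± 0.20, SE) and Irgm1 (0.36 ± 0.16). The third gene by p was Nlrc5, an activator of MHC class I genes, at 0.16 ± 0.14. Without Balb/cBy replicate 2 the difference of Igtp was 0.27 and that of Irgm1 0.23, and without Balb/c replicate 1 that of Nlrc5 was 0.041. These values, of the genes with the smallest p, ran opposite in sign to that of Cxcl9. Among the 22 measured genes, 8 shared the sign of Cxcl9. The list's mean per array, 8.64 to 8.83 in Balb/cBy and 8.63 to 8.74 in Balb/c, overlapped. Of 26 listed genes of NF-κB signalling and its response, 25 were measured. Of them 17 differences were positive and 8 negative, with a median of 0.11 and 0 passing. The list holds parts of the pathway, such as Rela and Ikbke, beside genes it induces. At an unadjusted p under 0.05 there were 4, all positive, led by the subunit Rela (0.30 ± 0.09, SE), the cofactor Bcl3 (0.40 ± 0.13) and the kinase Ikbke (0.27 ± 0.09). The shares to read these against are 2.59% of all genes with a positive difference at this p and 1.15% with a negative one.

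In several cell type marker lists most differences had the same sign, and their part in the results was not tested. The ligands named here had differences of both signs, so a list leaning either way shares its sign with some of them. Over all genes 10883 differences were positive and 11297 negative. Of 13 measured T and NK cell markers, 12 had negative differences, as Ccl5 and Cxcl9 did. Their median difference was -0.09, where the median absolute difference over all genes was 0.08. Most dendritic cell and mast cell markers were negative too. The T and NK cell list's mean per array was 7.45 to 7.56 in Balb/cBy and 7.54 to 7.68 in Balb/c. Of its 13 markers, 4 lay above the olfactory receptor level. All 9 measured markers of recruited monocytes and lipid-associated macrophages had positive differences, as Ccl2, Ccl3, Ccl6 and Ccl9 did, with means of 8.22 to 8.30 in Balb/cBy and 7.91 to 8.06 in Balb/c and a median difference of 0.36; 5 of the 9 lay above that level. Markers of Kupffer cells and macrophages (14 measured, 9 positive) averaged 9.73 to 10.13 in Balb/cBy and 9.46 to 10.16 in Balb/c. Their lowest array was Balb/c replicate 3, which was also the lowest for Ccl6, Cxcl13 and Cxcl12. This was not particular to the list. That array was also lowest for the recruited monocyte, neutrophil, stellate cell, and B and plasma cell lists, though not for the remaining lists. Stellate cell markers (12 measured, 10 positive) averaged 9.24 to 9.53 in Balb/cBy and 9.08 to 9.36 in Balb/c, and neutrophil markers (11 measured, 8 positive) 7.34 to 7.46 in Balb/cBy and 7.17 to 7.35 in Balb/c.

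No marker gene passed the adjusted threshold. The gene of smallest p in each list was Nkg7 for T and NK cells (-0.24 ± 0.09, SE), Cd63 for recruited monocytes and lipid-associated macrophages (0.59 ± 0.12), Mpeg1 for Kupffer cells and macrophages (0.35 ± 0.12), Lum for stellate cells (0.53 ± 0.12) and Retnlg for neutrophils (0.40 ± 0.11). For the others it was Jchain, of plasma cells, for the B and plasma cell list (1.12 ± 0.28), Ccr7 for dendritic cells (-0.14 ± 0.13), Fcgr2b for sinusoidal endothelium (-0.30 ± 0.15), Sox9 for cholangiocytes (0.16 ± 0.15), Serpina1a for hepatocytes (0.55 ± 0.21) and Mcpt4 for mast cells (-0.25 ± 0.11). Positive differences numbered 2 of 5 for B and plasma cells, 1 of 7 for dendritic cells, 6 of 10 for sinusoidal endothelium, 2 of 5 for cholangiocytes, 5 of 9 for hepatocytes and 1 of 5 for mast cells. Within the B and plasma cell list the B cell genes Ms4a1 (-0.27 ± 0.09, SE), Cd79b (-0.27 ± 0.10) and Cd79a (-0.17 ± 0.10) were named after their values were seen. They were lower on every Balb/cBy array than on any Balb/c array, as were 3.51% of all genes, and opposite in sign to Jchain. Ms4a1 (mean 6.19), Cd79a (7.06) and Jchain (7.59) lay under the olfactory receptor level of 8.02, and Cd79b (8.12) just above it.

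**Figure D4:**
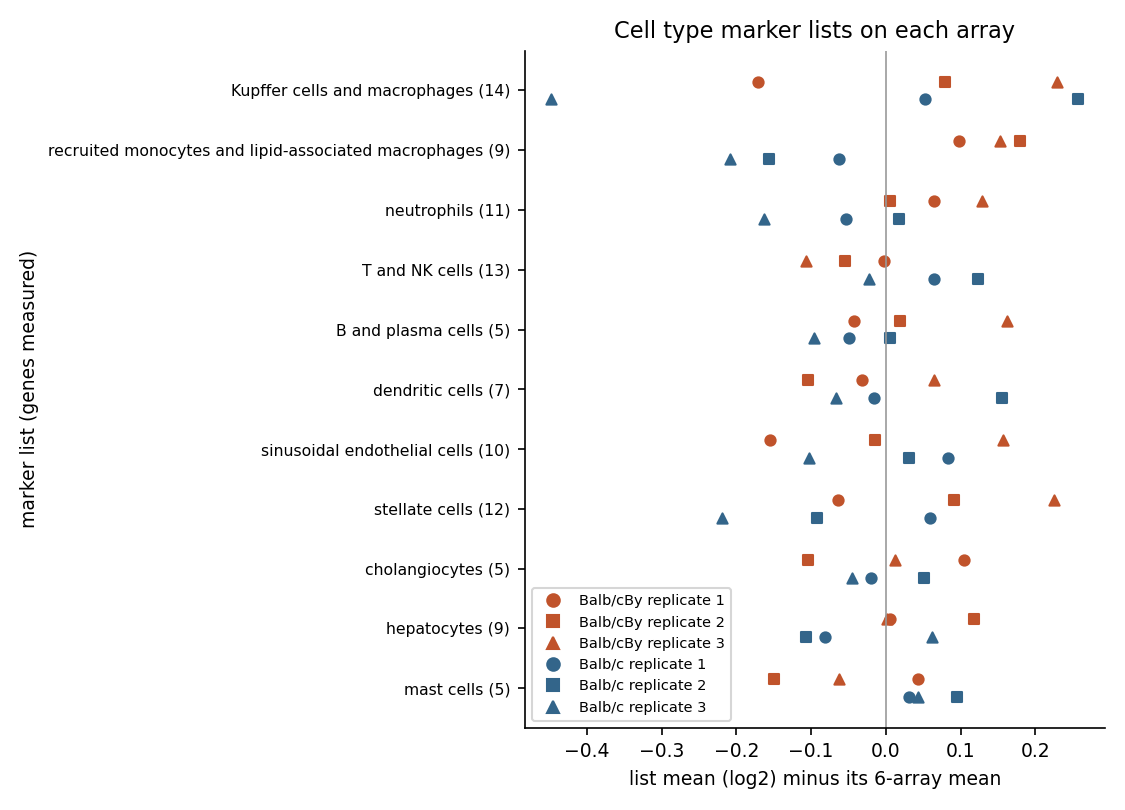
Each row is a cell type marker list with the number of genes measured; the x axis is the list's mean log2 value on an array minus its mean over the 6 arrays. Orange symbols are Balb/cBy arrays and blue symbols Balb/c arrays, with circle, square and triangle for replicates 1, 2 and 3. The lists of recruited monocytes and lipid-associated macrophages do not overlap between the groups. Balb/c replicate 3 is the lowest array of the Kupffer cell and macrophage list and of several other lists.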

How the data were processed

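Liver RNA of 3 Balb/cBy and 3 Balb/c mice was hybridised to Affymetrix whole-transcript arrays, 1 per mouse, from 500 ng of total RNA, per the labels' protocols. The authors deposited log2 values per probe set, made with RMA per the submitters' processing notes; the software, its version and the build are not known from these sources. The table holds 41345 probe sets, of which 23521 with 1 gene symbol, covering 22180 genes, were tested; 1814 carry several symbols and 16010 are unnamed. Groups follow the titles in the labels. The number of arrays limits the precision.

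Probe sets were fitted with limma 3.58.1 in R 4.3.3, with the group as its single term, empirical Bayes moderation, two-sided tests and Benjamini-Hochberg adjustment at 0.05. The fit was tested on simulated data. Exact permutation of 3 against 3 arrays cannot go below p = 0.1, so single genes rest on limma. Values on all arrays are given for the 8 ligands of smallest p, the 8 of highest mean, the 6 of widest range and the interferon-induced and Glu-Leu-Arg CXC classes, 17 in all, and from each of the receptor, interferon-gamma and NF-κB lists the 3 genes of smallest p are named, and from each marker list the first. The members and gene lists were chosen with earlier results of these data known. Promoters are from RefSeq (GRCm38.p6), as are gene order and biotypes, with all 34 ligand symbols found; a further motif searched is not reported here. Alternatives were other moderation, array weights, a replicate block, renewed normalization, median centring, other sets of probe sets and left-out arrays.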

Additional observations from a re-analysis of the deposited data

How the results depend on the processing

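No ligand, chemokine receptor, interferon-gamma or NF-κB gene passed limma's adjusted threshold under any setting run. Over all tested probe sets, 31 passed with array weights, 16 without Balb/c replicate 3 and Balb/cBy replicate 1 together and 0 to 4 when single arrays were left out (4 without Balb/cBy replicate 1, 2 without Balb/c replicate 3), against 0 with all arrays weighted alike. The 6 ligands at an unadjusted p under 0.05, a count chosen after seeing the data, became 0 without moderation and 2 to 5 when single arrays were left out. The count was 7 with array weights and stayed at 6 with renewed quantile normalization. The median ligand difference of 0.04 ran from -0.027 to 0.063 over the left-out arrays. The number of ligands above olfactory receptor genes was 19 by their 95th percentile, 33 by the 50th and 11 by the 99th. Of the 17 ligands given in full, 13 kept the sign of their difference in every setting. The other 4 turned sign: Cxcl16 at -0.011 with renewed quantile normalization and -0.026 without Balb/c replicate 3 and Balb/cBy replicate 1 (-0.092 to 0.16 over left-out arrays), Cxcl14 at -0.0079 without the same 2 arrays (-0.045 to 0.39), Cxcl2 (-0.11 to 0.019) and Cxcl10 (-0.019 to 0.11). The cause was not tested.

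Arrays of the same replicate number did not deviate together (correlations of -0.32, -0.19 and -0.23), so the numbers pair no animals by this measure. With the replicate block 0 ligands passed and 5 had an unadjusted p under 0.05.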
